A study of Mus musculus with 30 samples.

Results

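The transcripts of 10 tubulin genes were followed through the amygdala and the blood of mice kept in the home cage or trained to fear a tone. The genes are 7 β-tubulins (Tubb4a, Tubb3, Tubb2a, Tubb2b, Tubb5, Tubb1 and Tubb6) and 3 α-tubulins (Tuba1a, Tuba4a and Tuba8), each found in the expression table by its symbol, and they make up 10 of its 23303 gene entries. The sources used here do not state which values chose them. The blood comparisons, in which some of them were already known to differ, were taken as used, so the blood values are a description, and nothing is read from the counts past a threshold printed with them. The amygdala comparisons were taken as not used and were tested, and if they had a part in the choice those tests rest on the same values. All animals were males of the wild-type strain C57BL/6J, 2 to 3 months of age. Home cage mice (HC) were handled and killed under basal conditions. Fear-conditioned mice (FC) heard 5 tones that each ended with a foot shock and were killed 2 h later. A further set of mice (Immo+FC) was immobilized for 2 h, left undisturbed for 1 week and then conditioned and killed in the same way. There was no group with immobilization alone. Each library came from a pool of 2 mice, with 6 HC, 6 FC and 4 Immo+FC libraries of amygdala and 4 HC, 5 FC and 5 Immo+FC libraries of blood. Amygdala RNA came from punches of 1 mm around the basolateral nucleus, which may include other subregions, and blood RNA was depleted of globin transcripts.

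Microtubules are built from paired α- and β-tubulin, and each of the pair is encoded by several genes, called isotypes, whose proteins differ mostly in the acidic tail at the carboxyl end. The tail faces outward from the microtubule and is where many motors, associated proteins and modifying enzymes act. Tubb3 is a classical marker of neurons, Tubb4a is abundant in brain, where oligodendrocytes use it strongly, Tubb2a and Tubb2b are major brain isotypes, and Tuba1a is a main α-tubulin of neurons. Tubb1 is the isotype of megakaryocytes and platelets, where it forms the marginal band that keeps the platelet a disc. Tubb5 and Tubb6 are found in many cell types, and Tuba4a and Tuba8 are α-tubulins with more restricted patterns.

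The last 60 coding bases of 6 of the β-tubulins are shown because they encode the tail that sets the isotypes apart. They were read 5′ to 3′ from the GENCODE vM21 transcripts on GRCm38, the build also called mm10, and each lies within 1 coding exon and ends with the stop codon. The capitals mark bases that differ from Tubb2a or have no partner in it when the whole coding sequences are aligned. The positions are Tubb4a chr17:57080690-57080749 (minus strand), Tubb3 chr8:123421623-123421682 (plus strand), Tubb2a chr13:34074468-34074527 (minus strand), Tubb2b chr13:34127471-34127530 (minus strand), Tubb5 chr17:35834982-35835041 (minus strand) and Tubb1 chr2:174457823-174457882 (plus strand).
Tubb4a: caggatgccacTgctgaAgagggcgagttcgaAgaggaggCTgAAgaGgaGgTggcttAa
Tubb3: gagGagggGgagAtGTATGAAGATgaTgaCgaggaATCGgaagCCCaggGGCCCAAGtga
Tubb2a: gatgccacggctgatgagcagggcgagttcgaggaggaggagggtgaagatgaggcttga
Tubb2b: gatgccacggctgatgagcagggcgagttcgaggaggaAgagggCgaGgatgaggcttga
Tubb5: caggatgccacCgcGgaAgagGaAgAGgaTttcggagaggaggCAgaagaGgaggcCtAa
Tubb1: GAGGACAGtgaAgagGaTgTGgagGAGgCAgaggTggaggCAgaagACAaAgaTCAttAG

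Tubb2b differed from Tubb2a at 3 of these 60 bases, Tubb4a at 11 and Tubb5 at 13, while Tubb3 and Tubb1 each differed at 30. Over the whole coding sequence the pairs among the 6 β-tubulins shown and Tubb4b were 73.0 to 96.5% identical, with a median of 83.2%, and Tubb1 stood lowest with each of the others. Tubb2a and Tubb2b were the closest β-tubulin pair, and their genes lie near each other on chromosome 13. Such likeness bears on how reads can be placed. In Tubb2a 36.9% of all 100-base windows of the transcript occurred unchanged in another gene, mostly Tubb2b, and 27.7% of those of Tubb2b did. In Tuba1a it was 65.1%, shared with 11 other genes. Among tubulins outside the list it was 69.5% in Tuba1b, 53.4% in Tuba1c and 29.2% in Tubb4b. The levels of Tubb2a, Tubb2b, Tuba1a, Tuba1b, Tuba1c and Tubb4b are therefore uncertain by what the aligner assigned to their copies. Tubb4a, Tubb3, Tubb5, Tubb1, Tubb6, Tuba4a and Tuba8 had no shared window.

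Amygdala libraries held 23148078 to 31366290 sequences, of which 91.33 to 92.3% had a unique alignment. In blood these were 9081977 to 25892322 and 60.06 to 72.59%, and HC library 4 was the shallowest. Levels are FPKM, the number of fragments scaled by transcript length and by the size of the library. The paper does not state which library scaling its software used. The table gives no counts, so the counting error behind the low blood values is unknown. The labelled tissues carried their markers. The summed level of 12 neuron markers ran from 2785 to 3337 FPKM in amygdala and from 11.3 to 76.3 FPKM in blood. The summed level of 9 platelet markers ran from 6298 to 14045 FPKM in blood and from 1.78 to 2.69 FPKM in amygdala. The 6 choroid plexus markers summed to 2.64 to 1057 FPKM in HC amygdala and 3.18 to 910.9 FPKM in FC amygdala. In Immo+FC amygdala they summed to 113.3 to 963.9 FPKM. The medians were 153.9, 224.7 and 692.5 FPKM, and the part of this tissue in the amygdala values was not tested. In these bulk samples fewer cells of a type and less RNA per cell cannot be told apart. The tissues were processed separately by the authors, so levels of one tissue are set beside those of the other without a test.

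In the HC amygdala the α-tubulin Tuba1a was the highest isotype at 305.6 ± 12.1 FPKM (SD, n = 6). Tubb2a followed at 273.8 ± 11.2 FPKM and Tubb4a at 254.6 ± 11.6 FPKM. The ranges of Tubb2a and Tubb4a overlapped, and lay apart from those of Tuba1a above and Tuba4a below. Tuba4a came next at 207.3 ± 22.04 FPKM, then Tubb5 at 176.9 ± 7.59 FPKM and Tubb3 at 166.5 ± 12.7 FPKM. Tubb5 overlapped with both Tuba4a above it and Tubb3 below it. Tubb2b stood at 48.0 ± 3.42 FPKM, Tuba8 at 3.83 ± 0.379 FPKM and Tubb6 at 2.40 ± 0.343 FPKM, with no overlap between these neighbours. The platelet isotype Tubb1 was listed at 0 in 5 of the 6 HC libraries and at 0.0421 FPKM in the other.

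In HC blood the order was another one. Tubb1 led at 380.3 ± 37.7 FPKM (SD, n = 4), above Tuba4a at 171.8 ± 104 FPKM, Tubb2a at 154.5 ± 36.5 FPKM and Tubb5 at 106.0 ± 9.63 FPKM. The range of Tubb1 lay apart, and the next 3 overlapped. Tuba1a, the leading isotype of the amygdala, stood at 71.5 ± 12.5 FPKM. Tubb2b at 12.9 ± 2.53 FPKM, Tubb6 at 10.5 ± 2.91 FPKM and Tuba8 at 9.88 ± 1.49 FPKM formed a group whose ranges overlapped. Tubb4a and Tubb3 were lowest, at 4.18 ± 2.13 and 3.66 ± 1.99 FPKM, and did not differ beyond their spread.

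**Figure D1:**
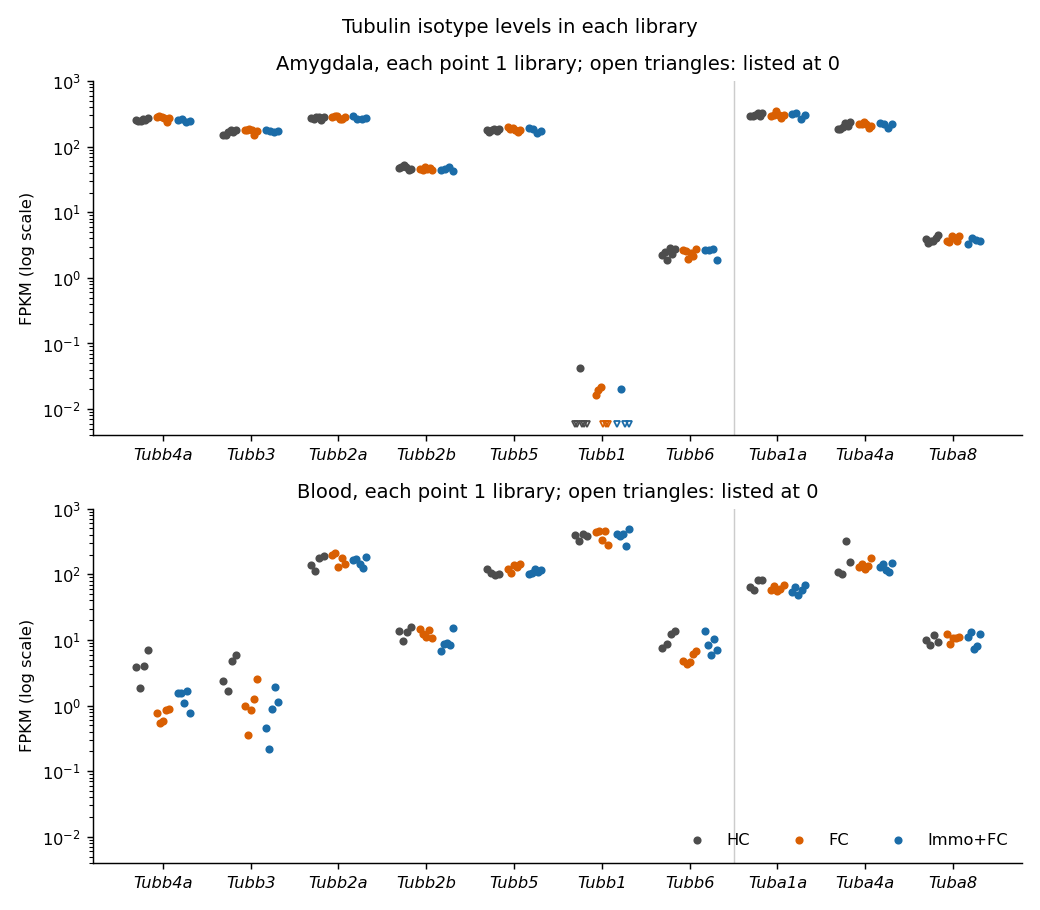
Level in FPKM on a log scale of each tubulin isotype in each library of amygdala (top) and blood (bottom), coloured by group, with open triangles for libraries in which the gene is listed at 0. Tubb1 is at or near 0 in amygdala and the highest isotype in HC blood (380.3 FPKM), while Tubb4a and Tubb3 fall from 150.9 FPKM or more in amygdala to between 0.221 and 7.001 FPKM in blood.

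The isotypes fell into 3 kinds by their blood level as a percent of the HC amygdala mean. Tubb4a and Tubb3 reached medians of 1.55 and 2.14% in HC blood. Tubb2b, Tuba1a, Tubb2a, Tubb5 and Tuba4a reached medians of 23.98 to 63.1%, and Tuba8 and Tubb6 were higher in blood than in amygdala, with medians of 253% and 435%. The summed neuron markers reached a median of 1.78% in HC blood, close to the values of Tubb4a and Tubb3. In every blood library Tubb4a and Tubb3 stood at 3.53% of their HC amygdala mean or less, and the other isotypes, leaving out Tubb1, stood at 13.9% or more.

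Among the β-tubulin transcripts of a library, summed over the 7 listed genes and Tubb4b, the makeup of the amygdala varied little. Over all 16 libraries Tubb2a ran from 25.5 to 27.7%, Tubb4a from 23.7 to 26.3% and Tubb3 from 15.1 to 17.2%. The HC means were 26.8% Tubb2a, 24.9% Tubb4a, 17.3% Tubb5, 16.3% Tubb3, 9.66% Tubb4b, 4.71% Tubb2b and 0.235% Tubb6. HC blood instead held 49.1% Tubb1, 19.7% Tubb2a, 13.8% Tubb5, 13.5% Tubb4b, 1.65% Tubb2b, 1.34% Tubb6, 0.523% Tubb4a and 0.455% Tubb3. Tubb2a ranked first in HC amygdala and next after Tubb1 in HC blood.

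**Figure D2:**
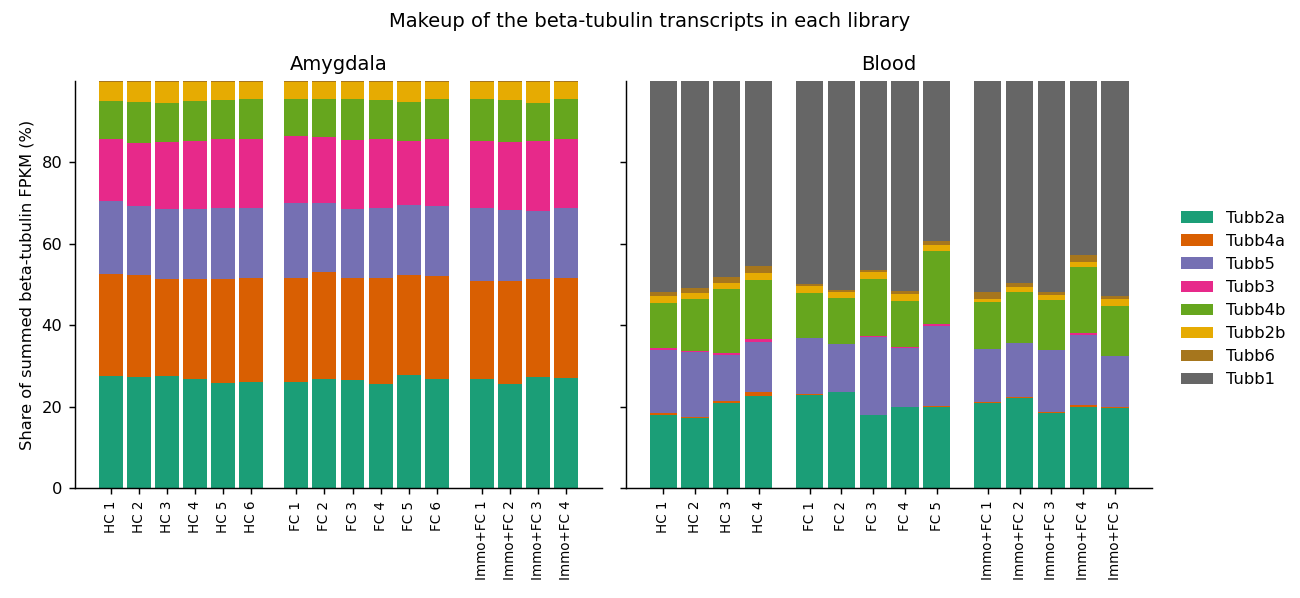
Share of each β-tubulin gene in the summed β-tubulin FPKM of each library, in percent, with 1 bar per library ordered by group. Amygdala libraries are divided mainly among Tubb2a, Tubb4a, Tubb5 and Tubb3, and in blood libraries Tubb1 makes up 39.4 to 52.8%.

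In the amygdala no tubulin isotype passed the test in limma, with conditioning or with earlier immobilization. Of the 10 isotypes 9 passed the filter of a mean of at least 0.5 FPKM, and Tubb1 did not. With FC compared with HC, 0 of the 9 passed an adjusted p of 0.05, where 0.0148% of all genes did, a share that moved widely with the library left out, and 0 had an unadjusted p under 0.05 (all genes 13.1%). With Immo+FC compared with FC it was 0 of 9 (all genes 0.0222%), with 1 at an unadjusted p under 0.05 (all genes 10.4%). With Immo+FC compared with HC it was again 0 of 9 (all genes 0.2%), with 0 at an unadjusted p under 0.05 (all genes 13.1%). The log2 fold changes, on the scale of log2(FPKM + 0.1), lay between -0.11 and 0.09, and their 95% intervals lay between -0.27 and 0.32. The median log2 fold change of the 9 was 0.04, -0.02 and 0.00 in these comparisons, beside 0.01, -0.02 and -0.01 for all genes.

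The widest move was that of Tubb4a. It ran from 243.6 to 274.6 FPKM in HC (median 251.5) and from 239.1 to 289.2 FPKM in FC (median 275.5), and was 256.4, 266.6, 235.5 and 243.9 FPKM in the Immo+FC libraries. The groups overlapped throughout. The log2 fold change was 0.09 (SE 0.05, adjusted p = 0.427 in limma) for FC with HC and -0.11 (SE 0.05, adjusted p = 0.47 in limma) for Immo+FC with FC. In FC with HC 4 of the 12 neuron markers had an unadjusted p under 0.05 in the upward direction (all genes 6.59%), where that of Tubb4a was 0.0731 in limma. In Immo+FC with FC 5 of 12 had it in the downward direction (all genes 6.49%), and none passed the adjusted threshold in limma in either comparison. Taken as a percent of the summed neuron markers, Tubb4a ran from 8.01 to 8.47% in HC, from 7.999 to 8.69% in FC and from 7.71 to 8.74% in Immo+FC. The 9 oligodendrocyte markers summed to 759.3 to 945.3 FPKM in HC (median 805.8), 703.2 to 1017 FPKM in FC (median 928.1) and 762.0 to 1004 FPKM in Immo+FC (median 881.0). FC library 5 was the lowest of its group in this sum, in the neuron marker sum and in Tubb4a, at 703.2, 2989 and 239.1 FPKM. Immo+FC library 3 was the lowest of its group in Tubb4a and in the neuron marker sum, at 235.5 and 2785 FPKM. Its oligodendrocyte marker sum, 1004 FPKM, was the highest of that group. The part of either cell type in the values of Tubb4a was not tested.

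Tubb3 ran from 151.1 to 180.6 FPKM in HC (median 169.2) and from 150.9 to 188.7 FPKM in FC (median 177.3), and was 176.4, 175.8, 168.9 and 170.8 FPKM in Immo+FC. Its log2 fold change was 0.07 for FC with HC, -0.01 for Immo+FC with FC and 0.06 for Immo+FC with HC (SE 0.05 to 0.06). The paired isotypes Tubb2a and Tubb2b had log2 fold changes of 0.04 and -0.06 for FC with HC, with intervals that include 0. Tuba1a, the most abundant isotype, had 0.00 for FC with HC (SE 0.05) and a 95% interval of -0.11 to 0.11. The interval was wider for the scarce Tubb6, at -0.23 to 0.26.

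**Figure D3:**
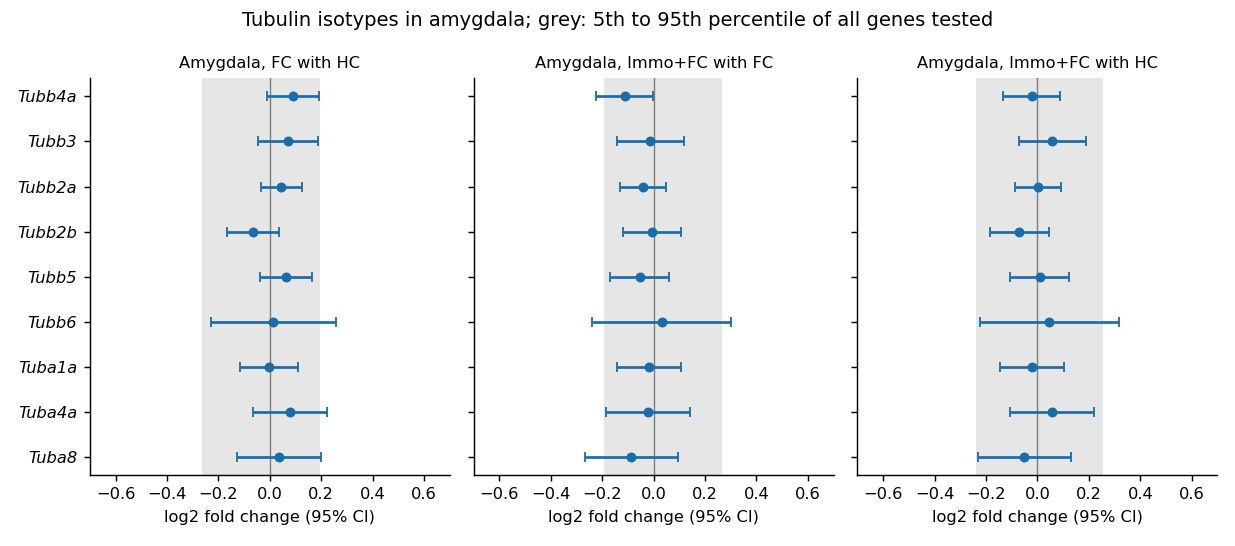
Log2 fold change of the 9 tested isotypes in amygdala (points, log2(FPKM + 0.1) scale) with 95% intervals, in 3 comparisons, over the grey 5th to 95th percentile range of all genes tested. Each point is within that range, and only the interval of Tubb4a in Immo+FC with FC (-0.22 to -0.0018) leaves out 0.

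The β-tubulin shares of the amygdala were compared by exact two-sided permutation tests over libraries, 21 in all for 7 genes and 3 comparisons. None passed after adjustment by the method of Benjamini and Hochberg. The smallest p was that of Tubb4a in Immo+FC with FC, 24.4% against 25.5%, a difference of -1.05 percentage points (exact permutation p = 0.0476, adjusted p = 0.682). The next was Tubb2b in FC with HC, 4.32% against 4.71% (exact permutation p = 0.0649, adjusted p = 0.682).

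In blood Tubb4a, Tubb3 and Tubb6, all scarce in that tissue, differed most between groups. Tubb4a stood at 3.92, 1.83, 3.96 and 7.001 FPKM in the 4 HC libraries. It stood at 0.781, 0.537, 0.583, 0.871 and 0.893 FPKM in the 5 FC libraries and at 1.54, 1.57, 1.08, 1.65 and 0.778 FPKM in the 5 Immo+FC libraries. All HC libraries were above every FC and every Immo+FC library, and FC and Immo+FC overlapped. The log2 fold change was -2.24 (SE 0.33) for FC with HC and -1.49 (SE 0.33) for Immo+FC with HC. Between Immo+FC and FC it was 0.75 (SE 0.31). With a pseudocount of 1 the first of these was -1.49.

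Tubb3 stood at 2.36, 1.65, 4.78 and 5.87 FPKM in HC, at 0.988, 0.358, 0.855, 1.24 and 2.57 FPKM in FC. The Immo+FC libraries were at 0.456, 0.221, 0.8996, 1.94 and 1.13 FPKM. HC library 2 was below the highest library of each other group, so the groups overlapped. The log2 fold change was -1.59 (SE 0.57) for FC with HC, -1.97 (SE 0.57) for Immo+FC with HC and -0.39 (SE 0.53) for Immo+FC with FC.

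The neuron marker sums had their highest values in HC blood. They were 49.6, 24.4, 60.9 and 76.3 FPKM in HC blood, 17.8, 13.05, 14.8, 11.3 and 29.4 FPKM in FC blood and 15.5, 16.9, 18.97, 27.6 and 11.4 FPKM in Immo+FC blood. HC library 2 was the lowest of its group and overlapped with the other groups. Each of the 12 markers was above 0 in at least 1 library of every group. Of the 9 that passed the filter, 8 had an unadjusted p under 0.05 in the downward direction in FC with HC (all genes 5.87%) and 8 in Immo+FC with HC (all genes 8.12%), and none passed the adjusted threshold in limma. As 1 of the 9 reached the filter's minimum in the mean of HC alone, these counts lean toward lower values. The highest marker was Gad1, a GABA-synthesizing enzyme, at a mean of 9.56 FPKM over blood libraries. Snap25, a synaptic vesicle fusion protein, ran from 3.60 to 16.5 FPKM in HC, from 0.142 to 4.21 FPKM in FC and from 0.0747 to 4.37 FPKM in Immo+FC. As a percent of the neuron marker sum, Tubb4a was 6.499 to 9.18% in HC blood, 3.04 to 7.70% in FC and 5.69 to 9.92% in Immo+FC, where amygdala libraries had 7.71 to 8.74%. Tubb3 was 1.31 to 11.01% in blood and 5.05 to 6.06% in amygdala. Gad1 ran from 7.44 to 16.4 FPKM over blood libraries and made up much of the lower sums, so these percents depend on it there. Snap25 was below Tubb4a in blood FC libraries 2 and 4, at 0.142 and 0.526 against 0.537 and 0.871 FPKM. It was also below Tubb4a in blood Immo+FC library 5, at 0.0747 against 0.778 FPKM. Snap25 was above Tubb4a in the other blood libraries and in all amygdala libraries. Astrocyte markers were also higher in HC blood, with a sum of 5.99 to 16.3 FPKM against 2.99 to 7.96 FPKM in FC and 3.86 to 6.06 FPKM in Immo+FC, with ranges that overlap. The oligodendrocyte list was led in blood by Cnp, at 104.0 to 166.6 FPKM, and its sum overlapped between groups. The part of neural RNA in the values of Tubb4a and Tubb3 was not tested.

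**Figure D4:**
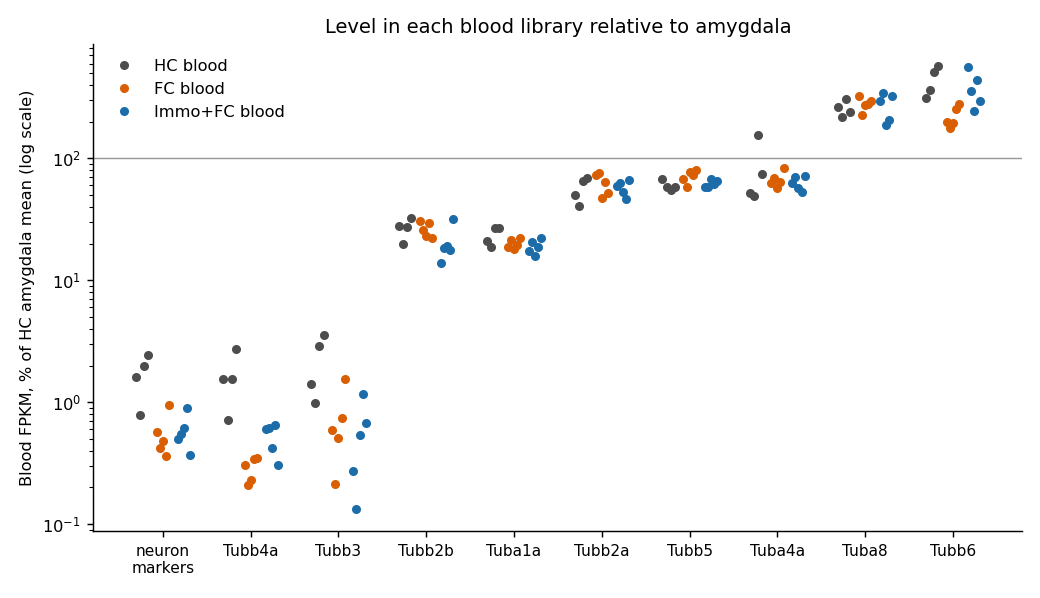
Level in each blood library as a percent of the mean of the 6 HC amygdala libraries (log scale), for the summed neuron markers and 9 isotypes, coloured by group, with a line at 100%. The neuron markers, Tubb4a and Tubb3 lie at 0.133 to 3.53%, with HC mostly above the other groups, and the other isotypes lie at 13.9% or more.

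Tubb6 was the other isotype whose FC and HC blood libraries did not overlap. It stood at 7.47, 8.70, 12.1 and 13.7 FPKM in HC, at 4.75, 4.24, 4.68, 6.14 and 6.69 FPKM in FC. The Immo+FC libraries were at 13.6, 8.49, 5.86, 10.5 and 7.07 FPKM. All FC libraries were below every HC library, and Immo+FC overlapped with both. The log2 fold change was -0.95 (SE 0.24) for FC with HC, 0.73 (SE 0.23) for Immo+FC with FC and -0.22 (SE 0.24) for Immo+FC with HC. Unlike Tubb4a and Tubb3, Tubb6 was higher in every blood group than in amygdala, with a mean of 10.5 FPKM against 2.40 in HC and 5.30 against 2.42 in FC.

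Tubb1 did not follow these isotypes. It stood at 399.6, 327.7, 413.9 and 379.9 FPKM in HC, and the group means were 380.3 ± 37.7 in HC, 392.2 ± 79.8 in FC and 391.1 ± 78.7 FPKM in Immo+FC (SD, n = 4, 5 and 5). The ranges overlapped in all comparisons, and the platelet marker sums of 6599 to 14045, 6298 to 9818 and 6426 to 8786 FPKM overlapped as well. Tubb2a, at group means of 154.5, 170.9 and 157.7 FPKM, and Tuba8, at 9.88, 10.7 and 10.4 FPKM, differed by less than their spread.

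Tubb2b, the close relative of Tubb2a, was 13.5, 9.48, 13.1 and 15.6 FPKM in HC and 10.8 to 14.8 FPKM in FC. Its Immo+FC libraries were 6.69, 8.77, 9.14, 8.48 and 15.3 FPKM, of which 4 were below all HC and FC libraries and library 5 was among the highest of all. Tubb5 was 97.9 to 119.9 FPKM in HC, 103.7 to 142.1 FPKM in FC and 102.7 to 120.1 FPKM in Immo+FC, with a log2 fold change of 0.25 for FC with HC. Tuba1a was 57.3 to 82.2 FPKM in HC, 55.3 to 68.4 FPKM in FC and 48.7 to 67.8 FPKM in Immo+FC. The groups overlapped for both.

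Tuba4a was set apart by a single library. It was 107, 101, 324 and 154 FPKM in HC, 119.5 to 174.4 FPKM in FC and 109.7 to 147.6 FPKM in Immo+FC. In the same HC library 3 the sums of erythroid, neutrophil and dividing cell markers were 29265, 28873 and 2147 FPKM, where the other HC libraries had at most 9172, 5430 and 866 FPKM. Without that library the mean of Tuba4a in HC was 121.0 ± 28.9 FPKM (SD, n = 3). Over blood libraries the dividing cell sum was led by Ube2c, at up to 2113 FPKM, with Birc5 next at up to 24.3 FPKM. The erythroid sum was led by Bpgm, at up to 25169 FPKM, so both sums rest largely on a single gene. The part of these cells in the level of Tuba4a was not tested.

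**Figure D5:**
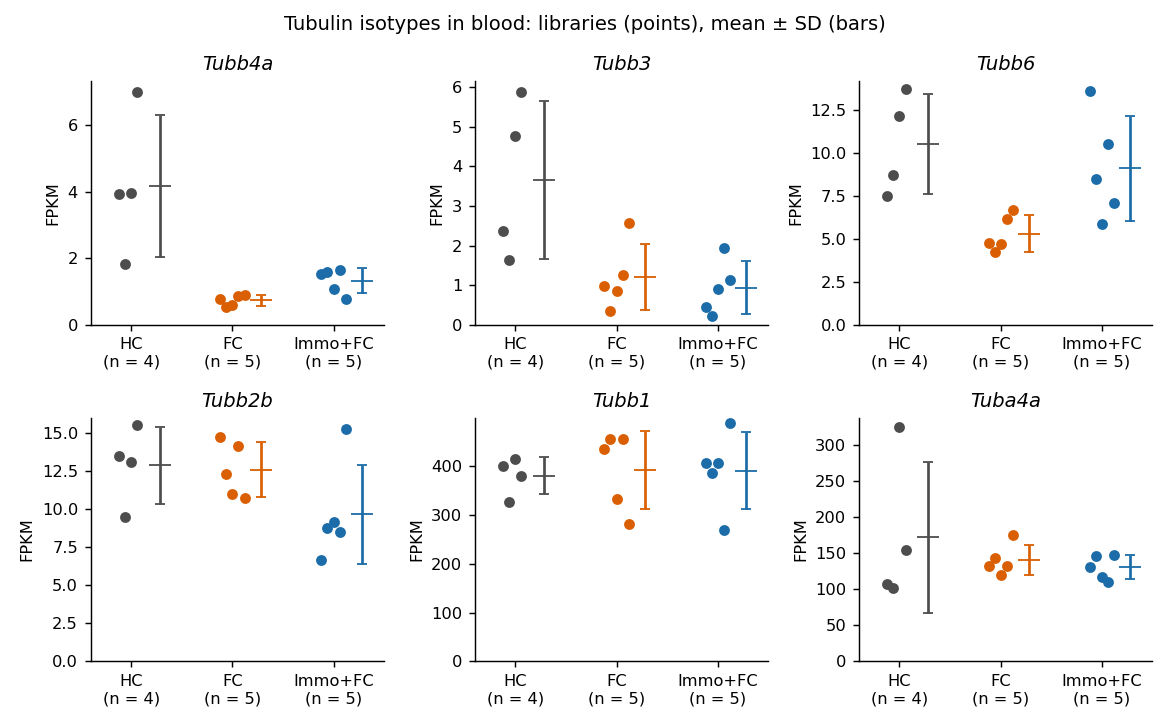
FPKM of 6 isotypes in each blood library (points) by group, with the mean and SD beside them. The HC points of Tubb4a lie above all FC and Immo+FC points, the FC points of Tubb6 lie below all HC points, Tubb1 overlaps in all groups, and HC library 3 stands alone in Tuba4a at 324 FPKM.

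Counted over the 10 isotypes in blood, 1 (Tubb4a, lower) was past an adjusted p of 0.05 in limma for FC with HC, where 0.0343% of all genes were. For Immo+FC with FC it was 0 (all genes 0%) and for Immo+FC with HC also 0 (all genes 0.0686%). Groups did not overlap in the downward direction for 2 isotypes in FC with HC (all genes 2.23%), 0 in Immo+FC with FC (all genes 0.884%) and 1 in Immo+FC with HC (all genes 2.77%). In the upward direction it was 0 in each (all genes 1.65%, 0.695% and 1.84%). Nothing is read from these counts, since the isotypes were taken as chosen from the same blood comparisons. The comparisons share their control libraries. Neutrophil marker sums ran from 4387 to 28873 FPKM in HC, 8135 to 19823 FPKM in FC and 12007 to 43604 FPKM in Immo+FC, with ranges that overlap. HC library 3 was the highest of its group, and the other HC libraries had at most 5430 FPKM. The paper's blood counts gave a higher proportion of neutrophils in Immo+FC than in FC or HC, and no difference between HC and FC. Natural killer cell marker sums were 305.6 to 377.0 FPKM in HC and 433.5 to 539.3 FPKM in FC, and those of Immo+FC, 278.8 to 522.5 FPKM, overlapped with both. Their part in the blood values was not tested.

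The genes most like each isotype within groups were found by the Pearson correlation of log2(FPKM + 0.1) over the 14 blood libraries after the mean of each group was taken off, among 10638 genes. These are descriptions over libraries that share their depth and cell makeup. For Tubb4a they were Gm4532 (0.91), Syn1 (0.87), which encodes a synaptic vesicle protein, Polr1d (0.85), Ptprs (0.84) and Crls1 (0.84). Tubb6 was the isotype most like Tubb4a, at 0.66 and rank 185, and Tubb3 stood at 0.40 and rank 1529. For Tubb1 they were Eya3 (0.90), Clic4 (0.90), Mvb12b (0.88), Pacsin2 (0.87) and Rnf144b (0.85). Tubb2a was the isotype most like Tubb1, at 0.75 and rank 37. For Tubb6 they were Tnni2 (0.87), a troponin of fast skeletal muscle, Jtb (0.82), Ager (0.82), Magohb (0.81) and Cuedc2 (0.81), and the most similar isotype was Tubb4a at 0.66.

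Genes that fold, bind, modify and nucleate tubulin were examined in both tissues, 95 genes of 5 lists in the table. In the amygdala 89 were tested, and only Dcx passed the adjusted threshold in limma, lower in FC than in HC (all genes 0.0148%). Dcx encodes doublecortin, a microtubule-binding protein of young and migrating neurons. It ran from 4.49 to 5.81 FPKM in HC (median 4.97), from 3.29 to 3.88 FPKM in FC (median 3.58) and from 3.80 to 4.79 FPKM in Immo+FC. All FC libraries were below all HC libraries, and the log2 fold change was -0.49 (SE 0.07, adjusted p = 0.0305 in limma). The call was lost when any 1 of HC libraries 4, 5 or 6, FC libraries 1, 2, 3 or 5 or Immo+FC library 3 was left out (adjusted p = 0.0509 to 0.134 in limma).

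Of the 10 other tubulins, 6 were tested in amygdala and 7 in blood. Of these, 0 passed in any comparison (all genes at most 0.2% in amygdala and 0.0686% in blood). Their HC amygdala means were 98.6 FPKM for Tubb4b, 67.9 FPKM for Tuba1b, 3.99 FPKM for Tubd1 and 0.702 FPKM for Tube1. Tubg2 and Tubg1, the γ-tubulins from which microtubules are nucleated, stood at 21.7 and 17.5 FPKM. In blood Tubg1 was at 10.9 FPKM and Tubg2 at 0.731 FPKM in HC. Tuba3a, Tuba3b and Tubal3 were at 0.172 FPKM or less in every library of both tissues. Tuba1c stood at 0.288 FPKM in HC amygdala and at 38.8 FPKM in HC blood, where library 3 reached 84.8 FPKM. The windows that Tuba1c shares with other genes leave both levels uncertain. The folding list, with the chaperonin and the tubulin cofactors, had 0 of 21 past the threshold in each tissue and comparison. Its smallest p in FC with HC was that of Cct3, a chaperonin subunit, in amygdala (log2 fold change 0.12, adjusted p = 0.155 in limma) and in blood (0.46, adjusted p = 0.146 in limma).

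Of the tubulin-modifying and severing enzymes, 0 of 22 passed in amygdala and 0 of 17 in blood (all genes at most 0.2 and 0.0686%). The smallest p in amygdala for Immo+FC with FC was that of Hdac6, a tubulin deacetylase, at -0.17 (adjusted p = 0.165 in limma). Of the nucleation and plus-end proteins, 0 of 22 passed in amygdala and 0 of 21 in blood, with Camsap3, a minus-end binding protein, at 0.14 for FC with HC in amygdala (adjusted p = 0.148 in limma).

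Of the 18 microtubule-associated proteins and stathmins, 14 were tested in blood and 0 passed the adjusted threshold in limma (all genes at most 0.0686%). An unadjusted p under 0.05 with a lower level was found for 8 in FC with HC and 9 in Immo+FC with HC, where 5.87 and 8.12% of all genes had it. Of the 14, 6 reached the filter's minimum in the mean of HC alone and so had to have a lower mean in the other groups, and nothing is read from these counts. Map1b, a protein of growing axons, is among these 6, so its lower means outside HC follow from the filter and nothing is read from them. It ran from 0.598 to 2.06 FPKM in HC, from 0.0233 to 0.464 FPKM in FC and from 0.0490 to 0.2004 FPKM in Immo+FC. Its HC libraries did not overlap with those of either group. Its log2 fold change was -2.55 for FC with HC (adjusted p = 0.112 in limma) and -2.63 for Immo+FC with HC (adjusted p = 0.0567 in limma). Stmn2 is in this list and among the neuron markers, whose lower sums in FC and Immo+FC blood are given above, and their part was not tested.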

How the data were processed

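RNA-seq was measured in 30 libraries, grouped by the titles that the labels give. The deposited FPKM values were made by the authors with Cufflinks and Cuffdiff 2.1.1 after alignment by STAR 2.3 (mm10), each tissue separately. The deposited mapping table gives sequence counts and percent values of mapped reads made by the authors. The FPKM table has 23303 entries, of which 272 join overlapping genes. Within a tissue, replicates are separate pools of 2 mice. Most blood labels carry the number of an amygdala library of the same group, and the paper pooled both tissues from 2 mice of a group. The amygdala and blood libraries thus appear to share animals and are not independent of each other.

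On log2(FPKM + 0.1), limma 3.58.1 (R 4.3.3) was run with variances that follow a trend with the mean and the 3 groups of a tissue in 1 fit. The filter, a mean over the tissue of 0.5 FPKM or more, left 13508 genes in amygdala and 11656 in blood, with Benjamini-Hochberg adjustment over all of them. The isotypes and the gene lists were chosen with earlier results of these data known. Named are all isotypes and other tubulins, of each other list the genes past the threshold (up to 4) or the 1 with the smallest p, up to 4 marker genes of the highest level, and the 5 genes most like Tubb4a, Tubb1 and Tubb6. The fit was checked on simulated data. Alternatives were other pseudocounts, filters, scalings, weights and samples, a replicate block, and a sum without Tubb4b for the shares. The sequences of Tubb6 and of the α-tubulins are not reported here. The libraries of a tissue correlated at 0.9656 to 0.9906 in amygdala and 0.9177 to 0.974 in blood, and none were identical.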

Additional observations from a re-analysis of the deposited data

Results flagged for a closer look

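Of 60 groups of 4 to 6 libraries tested over the 10 isotypes, 5 held a library far from the others. Chance gives about 1 in 20, a rate that does not hold where all other libraries are at 0, as for Tubb1. Nothing is read from the count. Tubb3 was 150.9 FPKM in amygdala FC library 5, and the other 5 FC libraries ran from 175.5 to 188.7 FPKM. Tubb6 was 1.88 FPKM in amygdala Immo+FC library 4, and the others ran from 2.66 to 2.72 FPKM. Tubb2b was 15.3 FPKM in blood Immo+FC library 5, and the others ran from 6.69 to 9.14 FPKM. Tubb1, listed at 0 in the other libraries of these groups, was 0.0421 FPKM in amygdala HC library 3 and 0.0204 FPKM in amygdala Immo+FC library 2.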

How the results depend on the processing

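In amygdala the count of isotypes past the threshold stayed at 0 under every alternative run, and so did the count of shares, while the count over all genes moved. For FC with HC that count was 2, and 500 with array weights, 357 without HC libraries 1 and 2 together, 143, 61 or 35 without HC library 1, 2 or 3, 91 when Immo+FC library 1 was dropped and 10 when FC library 6 was, with a lowest value of 1. For Immo+FC with FC it was 3 and ran from 1 to 171 (array weights), with 144 without Immo+FC library 1. For Immo+FC with HC it was 27 and ran from 0 (as when HC library 2 or 5 was dropped, or library 1, 2 or 3 of Immo+FC) to 148 (without Immo+FC library 4). In blood 1 isotype (Tubb4a) for FC with HC became 0 when only the 2 groups were fitted and without any 1 of HC libraries 1, 3 or 4 or FC libraries 1, 2, 3 or 4, a range of 0 to 1. The 0 for Immo+FC with HC became 1 (again Tubb4a) with a pseudocount of 1, with array weights, and without HC library 2 or 3 (0 to 1). Tubb4a kept its direction in both under all of these, at -2.57 to -1.49 and at -1.82 to -1.08 on the log2 scale. The number of partner genes called in amygdala was 1 for FC with HC, 0 with no filter, 5 with array weights, 5 without HC libraries 1 and 2 together (a choice made after seeing the data, as long transcripts were lower there), and 0 to 2 when 1 library was left out. For Immo+FC with FC it was 0, 2 with array weights, and 0 to 1 when 1 library was left out. In blood it was 0 for FC with HC and 1 with no filter (0 to 1), and 0 for Immo+FC with HC, 3 with a pseudocount of 1, 1 with no filter and 3 with array weights (0 to 1). The cause was not tested.

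Deviations of same-numbered libraries of different groups correlated at -0.257 to 0.310 in amygdala (median -0.0344) and -0.250 to 0.207 in blood (median 0.0085). Those of differently numbered libraries ran from -0.269 to 0.258 and from -0.287 to 0.292. These values cannot tell whether same-numbered libraries shared a batch, which the labels do not give. With the replicate block, partner genes called in amygdala were 2 for Immo+FC with FC, and isotypes past the threshold in blood were 0 for FC with HC and 1 (Tubb3) for Immo+FC with HC, and genes called in amygdala for FC with HC were 160. No counts come with the FPKM, so the limit that depth sets is not known for any gene.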
